A study of Homo sapiens with 6 samples.

Results

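Mucins and the Golgi enzymes that build their O-linked sugar chains were followed in colorectal cancer cells cultured with or without GCA. The genes were picked by symbol alone: MUC, GALNT, GCNT, B3GNT, ST6GALNAC, ST3GAL or FUT followed by a number, together with C1GALT1 and C1GALT1C1. This gave 68 of the 16229 genes in the count table, and 48 of the 68 had enough counts to be tested. RNA sequencing covered 6 libraries of MC38 cells of wild-type genotype, 3 after culture for 24 h with GCA and 3 without it (CON). GCA is read here as glycocholic acid, a bile acid joined to glycine, because the series title names that compound. The labels used here state no dose or vehicle. Nor do they say that the 3 libraries of a group are separate cultures, so the p-values reflect the spread between these 3 libraries, and that spread may be technical.

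A mucin is a long protein with serine- and threonine-rich repeats that carry dense O-glycans. Polypeptide GalNAc-transferases (GALNT) attach the first sugar, N-acetylgalactosamine, and core enzymes then add galactose or N-acetylglucosamine. B3GNT enzymes lengthen the chain, while sialyltransferases (ST6GALNAC, ST3GAL) and fucosyltransferases (FUT) decorate or cap it. In the colon, gel-forming mucins from goblet cells make the mucus layer, and membrane-bound mucins line the surface of absorptive cells.

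Some labels conflict, which touches every value below. MC38 is known as a mouse colon carcinoma line, whereas the organism is labelled human and the build hg38. Their extraction text speaks of heart, and the molecule is given as polyA RNA beside a kit for total RNA depleted of ribosomal RNA. The 3 GCA libraries have titles beginning with fa, which the labels do not explain, so the group of each rests on its treatment label.

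The epithelial label was checked against 13 colorectal epithelium markers, of which 9 could be tested and 4 rose. The keratin genes KRT8, KRT18 and KRT19 averaged 2517, 976 and 1468 FPKM in CON and 3462, 1549 and 1603 FPKM in GCA, and EPCAM averaged 181 and 202 FPKM. CDX2, an intestinal transcription factor, averaged 6.90 and 7.999 FPKM, but CDX1, CDH17, GPA33 and CEACAM5 were too low to test and VIL1 averaged 0.0939 FPKM in CON. Of the lists for other cells, 1 of 3 tested leukocyte genes (CORO1A), both tested fibroblast and endothelial genes (COL1A1 and VWF) and 1 of 2 tested cardiomyocyte genes (TNNI3) rose. The summed level was 27.8 to 31.8 CPM in CON and 32.2 to 42.0 CPM in GCA for the 7 leukocyte genes. It was 11.3 to 12.7 CPM and 16.7 to 18.4 CPM for the 7 fibroblast and endothelial genes, and 23.4 to 26.8 CPM and 37.2 to 42.4 CPM for the 6 cardiomyocyte genes. PTPRC, CD3E, MYH6, MYH7 and ACTC1, which define leukocytes and heart muscle, had 0 or 1 count in every library. Other genes of these lists were present: CD68 had 271 to 495 counts and MYL2 11 to 36. TNNT2 had 1, 1 and 0 counts in CON against 2, 11 and 10 in GCA, and CD14 had 0, 3 and 0 against 2, 3 and 8. For the 3 hepatocyte genes with a row the sum was 13.7 to 14.4 CPM in CON and 11 to 16.2 CPM in GCA, and ALB had 0 to 2 counts. The part of these genes in the mucin and enzyme results was not tested, and in bulk RNA fewer cells of a type and less RNA per cell cannot be told apart.

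Of the 48 tested genes, 16 rose and 6 fell with GCA in edgeR's quasi-likelihood test (Benjamini-Hochberg adjusted p under 0.05 over all 12604 tested genes). Over all tested genes 36.4% were called, 18.3% higher and 18.1% lower, so the share of called genes in the pathway (22 of 48) has to be read against a treatment that moved more than 1 gene in 3. The same holds for the counts called in each step and list below. The median log2 fold change of GCA over CON was 0.16 for the 48 genes and -0.04 for all tested genes. Below, genes whose groups did not overlap are described as such, but how many of all genes do this was not counted. Of the 48, 6 passed the filter on low counts through 1 group only, MUC2 through CON and MUC4, MUC5B, MUC12, MUC13 and MUC20 through GCA. Among the 42 that each group alone would have passed, 12 rose, 5 fell and the median was 0.12. With no filter, all 68 genes could be fitted, 18 rose and 6 fell, beside 2274 higher and 2399 lower of all 16229 genes. The call was kept under every alternative that tested the gene for 11 of the 22, namely MUC13, MUC20, GALNT9, B3GNT7, B3GNT9, ST6GALNAC2, ST6GALNAC6 and ST3GAL4 among those that rose and GALNT5, GALNT14 and GALNT18 among those that fell. How many of all called genes kept their call in this way was not counted.

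Base composition and 1 replicate number moved with these values and are given beside them. Across 12563 tested genes the log2 fold change had a Pearson r of 0.48 with the GC content of the gene's longest transcript. Across the 48 genes of the pathway r was 0.27 (Spearman's rho 0.56 and 0.44). Genes measured in the same 6 libraries are not independent replicates. A fit that removed the relation of each library to GC content and transcript length called 13 of the 48 higher and 6 lower (1688 and 1942 of all 12604), and 15 of the 22 genes kept their call and direction. By deposited FPKM, CON 1 was the lowest of the 3 CON libraries for 35 of the 48 genes. GCA 1 was the lowest of the 3 GCA libraries for 28. FPKM was scaled by library total and not by the TMM factors used in the test, so the order of libraries can differ in the fit. The same counts over all genes were not made. Without replicate 1 of both groups, 18 of the 48 rose and 9 fell, beside 3710 higher and 3709 lower of 12674 tested genes.

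**Figure D1:**
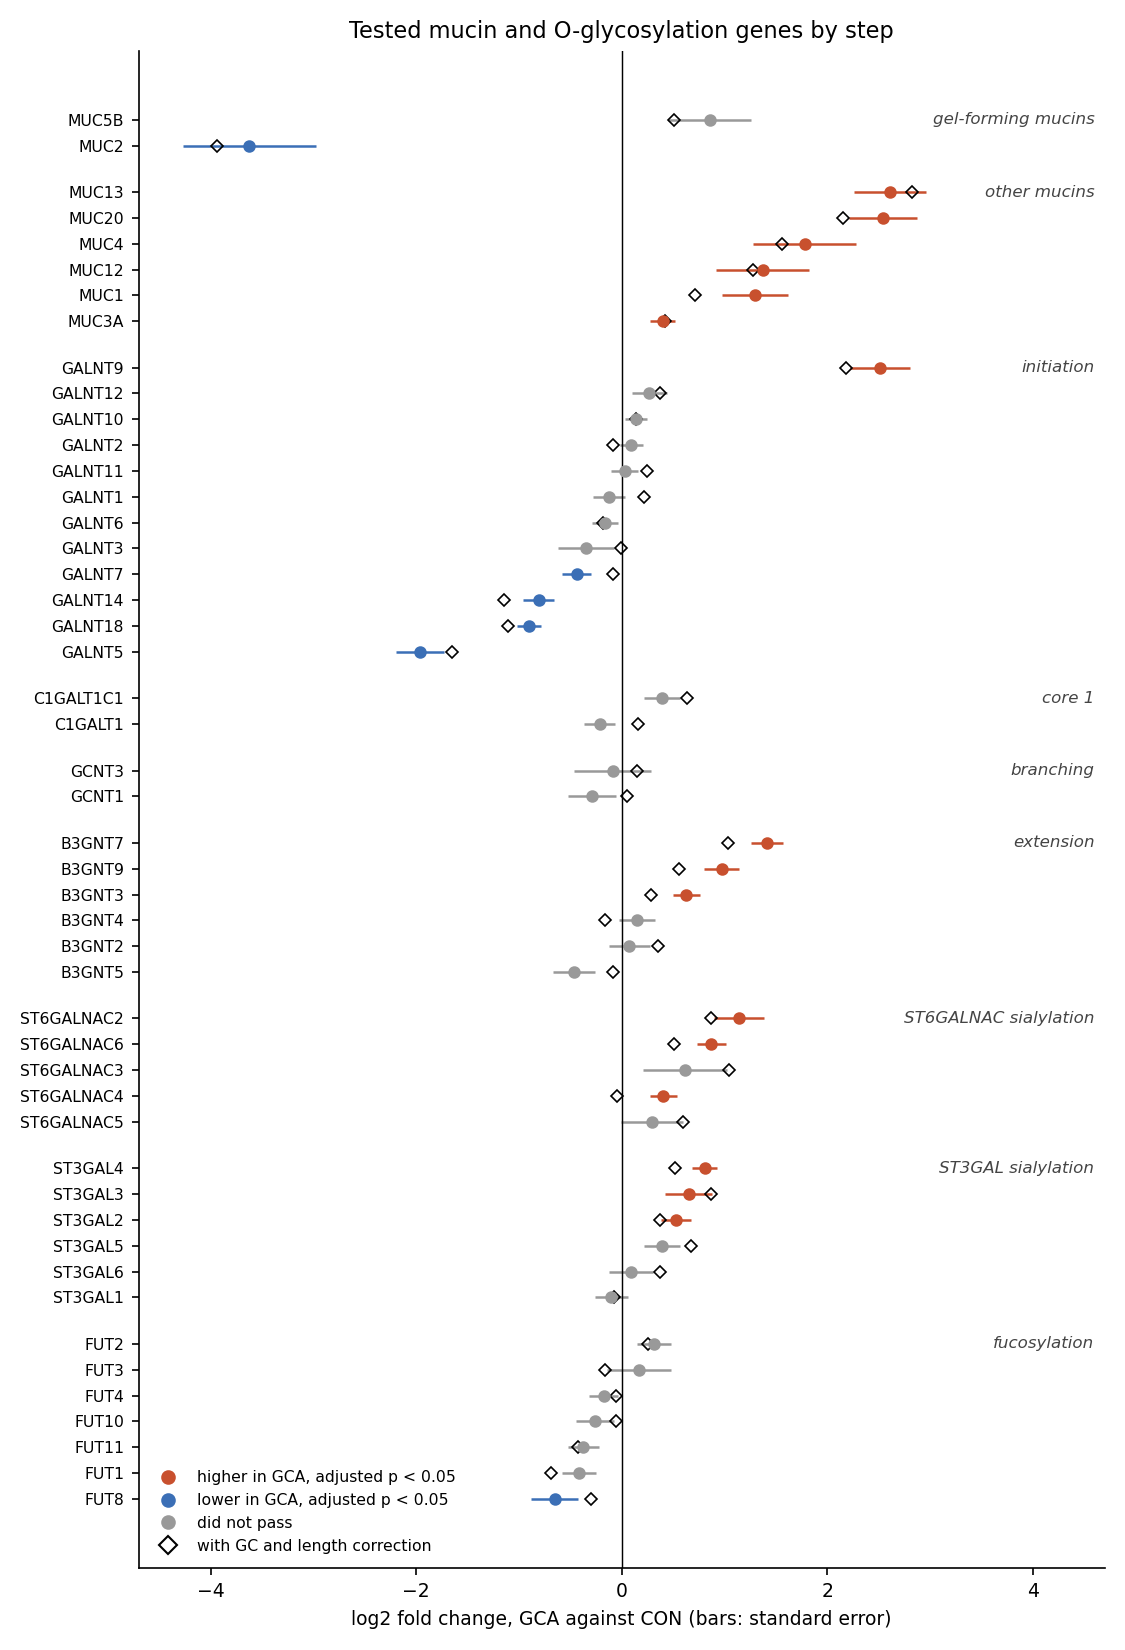
Log2 fold change of GCA over CON for the 48 tested genes, grouped by step of the pathway, with the standard error as a bar and the value after GC and length correction as an open diamond. MUC13, MUC20 and GALNT9 lie beyond 2 on the right, MUC2 lies at -3.62, and 4 of 12 GALNT genes are called lower and 1 higher.

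Called changes among the mucin backbones went in both directions. Of the 10 mucin genes outside the gel-forming group, MUC1 and MUC3A, which passed the filter on low counts through both groups, rose. MUC4, MUC12, MUC13 and MUC20 also rose, but they passed the filter only through GCA, the group where they are high, so their common direction is partly set by the filter, and the other 4 were too low to test. Of the 5 gel-forming mucins, 2 could be tested, and MUC2, the main goblet cell mucin of the colon, fell. MUC2 passed the filter only through CON, the group where it is high, so its direction is also partly set by the filter. MUC5B, the other tested one, passed only through GCA. The summed FPKM of all 15 mucins was 3.46 ± 0.44 (SD, n = 3) in CON and 6.50 ± 0.39 (SD, n = 3) in GCA, a ratio of 1.88. MUC3A held most of this sum in CON, and no other mucin averaged more than 0.233 FPKM there.

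MUC13, a membrane-bound mucin of the gut surface, had 9, 6 and 15 counts in the CON libraries and 52, 72 and 69 in the GCA libraries. The groups did not overlap, and the rise was 6.12-fold (log2 2.61 ± 0.35 SE, edgeR adjusted p = 0.000181). It was log2 2.83 after GC and length correction. MUC20, a small mucin reported as a partner of the MET receptor, had 6, 12 and 14 counts in CON against 56, 65 and 74 in GCA. All 3 GCA libraries lay above all 3 CON libraries, a rise of 5.82-fold (log2 2.54 ± 0.33 SE, edgeR adjusted p = 0.00015). Reads of MUC20 can be shared with the near-identical pseudogene MUC20P1, so its level is uncertain.

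MUC4, a large membrane mucin that binds ERBB2, is the chromosomal neighbour of MUC20. It had 10, 1 and 11 counts in CON against 32, 26 and 22 in GCA, and the rise was 3.43-fold (log2 1.78 ± 0.50 SE, edgeR adjusted p = 0.0153). The groups did not overlap, but the call was lost without GCA replicate 1 (adjusted p = 0.0617) or GCA replicate 2 (adjusted p = 0.0511). MUC12, a membrane mucin of the colon, had 3, 11 and 17 counts in CON against 26, 36 and 22 in GCA, and rose 2.59-fold (log2 1.37 ± 0.45 SE, edgeR adjusted p = 0.0313). This was the least stable mucin call: CON replicate 3 was the only library that could be left out without losing it, the adjusted p without each of the others being between 0.0518 and 0.131, and it was 0.0548 after GC and length correction.

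MUC1, the widely expressed epithelial mucin, had 14, 18 and 13 counts in CON against 44, 30 and 42 in GCA. Each GCA library was higher than each CON library, and the rise was 2.46-fold (log2 1.30 ± 0.32 SE, edgeR adjusted p = 0.00758). Its longest transcript has a GC content of 71.3%, the highest of the 68 genes. After GC and length correction the MUC1 value was log2 0.71 with an adjusted p of 0.0994. MUC3A, a membrane mucin of the intestinal brush border, was the most abundant mucin, at 504, 552 and 578 counts in CON against 814, 677 and 755 in GCA. The groups did not overlap, but its rise was small (1.32-fold, log2 0.40 ± 0.12 SE, edgeR adjusted p = 0.0203) and the call was lost without CON replicate 2 (0.0643), GCA replicate 1 (0.052) or GCA replicate 3 (0.0849).

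MUC3A held a smaller share of the mucin transcripts in every GCA library than in any CON library. MUC3A made up 79.2% ± 2.96 (SD, n = 3) of the summed FPKM of the 10 mucins outside the gel-forming group in CON and 51.9% ± 4.17 in GCA. MUC13 went from 5.60% ± 2.15 to 17.5% ± 3.12 and MUC20 from 6.85% ± 2.14 to 20.3% ± 2.41. Among the 4 mucins too low to test, MUC16, the membrane mucin that carries the CA125 epitope, had 3, 3 and 2 counts in CON against 10, 17 and 6 in GCA, a ratio of 3.83 (exact 95% counting interval 1.73 to 9.60), and it was called when no filter was used (adjusted p = 0.035). MUC17, a brush border mucin, had 3, 2 and 3 counts in CON against 0, 1 and 1 in GCA, so the CON level was 4.31 times the GCA level with an interval of 0.859 to 41.6 that includes no difference. MUC15 had 1 count in CON replicate 3 and MUC22 had 1 count in GCA replicate 1, with 0 in the other libraries. Such intervals cover counting error only.

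MUC2, which passed the filter only through CON, had 26, 14 and 35 counts in the CON libraries and 0, 4 and 2 in the GCA libraries. No GCA library reached the lowest CON library, and the fitted change fell by 3.62 ± 0.64 (SE) on the log2 scale (edgeR adjusted p = 0.00114). In summed counts, 75 against 6, the CON level was 13.5 times the GCA level, with an exact 95% counting interval of 5.90 to 37.8. The size depended on single libraries, being -4.54 without GCA replicate 2 and -3.03 without GCA replicate 1 on the log2 scale. MUC5B, the other tested gel-forming mucin, had 5, 17 and 13 counts in CON against 20, 24 and 22 in GCA, and, although the groups did not overlap, did not pass (log2 0.85 ± 0.41 SE, edgeR adjusted p = 0.116). The stomach mucins MUC5AC and MUC6 and the salivary mucin MUC19 had at most 2 counts in any library, and 3 counts correspond to 0.146 to 0.166 CPM here. MUC2 made up 71.5% ± 16.5 (SD, n = 3) of the summed FPKM of the gel-forming mucins in CON and 9.64% ± 9.55 in GCA.

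**Figure D2:**
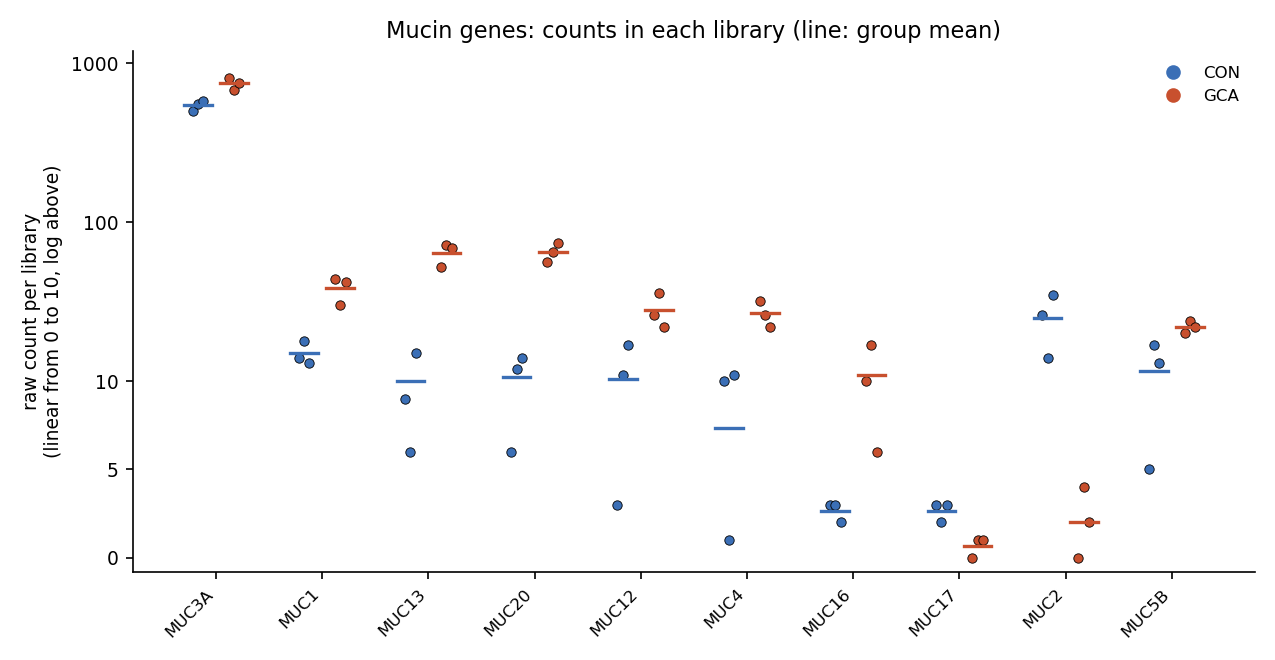
Raw counts of 10 mucin genes in each library on an axis that is linear from 0 to 10 and logarithmic above, with the 3 CON and 3 GCA libraries as points and the group mean as a line. MUC13 and MUC20 reach at least 52 counts in every GCA library and at most 15 in every CON library, while MUC2 has 14 to 35 counts in CON and 0 to 4 in GCA.

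Several mucins lie next to each other. MUC20 (chr3:195720978-195733551) and MUC4 (chr3:195746771-195811929) are 13219 bases apart in RefSeq on GRCh38.p14, and both rose. MUC3A (chr7:100949534-100968347), MUC12 (chr7:100969565-101018936) and MUC17 (chr7:101020081-101058859) follow each other with gaps of 1217 and 1144 bases, and the first and second rose while the third had too few counts to test. The gel-forming cluster on chromosome 11 runs MUC6, MUC2 (chr11:1074874-1110508), MUC5AC and MUC5B, and only MUC2 and MUC5B could be tested there. MUC12 and MUC5B overlap the antisense genes MUC12-AS1 and MUC5B-AS1, and no source used here gives the strand setting of the counting, so reads of the overlapping parts may be shared.

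The 250 bases before the annotated start are shown for the mucin that rose most by fold (MUC13), the one that fell (MUC2) and MUC4, from the RefSeq promoter table on GRCh38.p14. Capitals mark matches, on either strand, to 7 short motifs: the STAT element TTCNNNGAA, the interferon element core GAAANNGAA, the grainyhead site AACCNGTT, the nuclear receptor half-site AGGTCA, the E-box CACGTG, the GC box GGGCGG and the TATA box TATAAA.
MUC13, chr3:124934752-124935001, minus strand: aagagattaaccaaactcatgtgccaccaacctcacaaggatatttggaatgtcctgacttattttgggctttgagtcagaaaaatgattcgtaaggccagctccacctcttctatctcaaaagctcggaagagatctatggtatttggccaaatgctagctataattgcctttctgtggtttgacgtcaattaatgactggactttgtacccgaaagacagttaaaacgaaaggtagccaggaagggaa
MUC2, chr11:1074624-1074873, plus strand: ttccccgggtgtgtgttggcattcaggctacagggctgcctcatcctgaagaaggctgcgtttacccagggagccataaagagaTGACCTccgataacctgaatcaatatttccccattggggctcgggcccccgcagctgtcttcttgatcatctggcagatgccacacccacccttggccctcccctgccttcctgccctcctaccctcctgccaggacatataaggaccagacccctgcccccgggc
MUC4, chr3:195811930-195812179, minus strand: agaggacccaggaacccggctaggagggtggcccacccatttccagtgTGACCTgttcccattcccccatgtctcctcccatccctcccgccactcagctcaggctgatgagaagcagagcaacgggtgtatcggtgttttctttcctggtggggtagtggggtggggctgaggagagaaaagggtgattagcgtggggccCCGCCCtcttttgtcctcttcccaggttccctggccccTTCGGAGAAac
The MUC13 window held none of the 7 motifs. The MUC2 window held 1 half-site, read on the opposite strand, 166 bases before the start. The MUC4 window held 1 half-site, 1 GC box and 1 STAT element, the last of these 11 bases before the start. A match is a description of letters and not a measured binding site, and MUC20 has no entry in the table.

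Among the initiating enzymes, called changes went in both directions. Of 17 GALNT genes, 12 could be tested, 1 rose, 4 fell and 7 did not pass, with a median log2 fold change of -0.14. GALNT9, an initiating enzyme known mainly from brain, rose, and GALNT5, GALNT18, GALNT14 and GALNT7 fell. The summed FPKM of the step was 65.0 ± 8.44 (SD, n = 3) in CON and 59.8 ± 2.70 in GCA, and the libraries of the groups overlapped.

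GALNT9 (chr12:132196372-132329589) was at 0.180, 0.278 and 0.460 FPKM in CON and 1.54, 1.76 and 1.77 FPKM in GCA. These were 11, 16 and 27 counts against 101, 111 and 110. The groups were well apart, with a rise of 5.71-fold (log2 2.51 ± 0.29 SE, edgeR adjusted p = 7.05e-05) that stood at log2 2.18 after GC and length correction. GALNT9 overlaps the antisense gene GALNT9-AS1, and the same limit on strand holds. Its promoter is shown for contrast with MUC13, since both genes rose about 6-fold from windows of very different composition, 85.2% GC in GALNT9 and 41.6% in MUC13.
GALNT9, chr12:132329590-132329839, minus strand: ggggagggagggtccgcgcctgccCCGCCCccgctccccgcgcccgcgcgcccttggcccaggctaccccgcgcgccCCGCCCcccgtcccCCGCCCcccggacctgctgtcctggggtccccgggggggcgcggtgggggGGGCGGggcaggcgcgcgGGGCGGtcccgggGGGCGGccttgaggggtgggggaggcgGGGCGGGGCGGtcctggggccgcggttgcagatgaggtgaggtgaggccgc
The capitals mark 8 GC boxes, some of which share bases with the next.

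GALNT5 (chr2:157257705-157318491) moved the other way. It was at 1.32, 0.960 and 0.952 FPKM in CON and 0.309, 0.272 and 0.228 FPKM in GCA. Every GCA library was below every CON library, and the gene was 3.90-fold lower (log2 fell by 1.96 ± 0.23 SE, edgeR adjusted p = 7.46e-05). The value was -1.65 after GC and length correction. GALNT18 (chr11:11270877-11622005), a member of the family with little activity of its own in test-tube assays, was at 2.77, 3.64 and 3.51 FPKM in CON and 1.67, 1.68 and 1.77 FPKM in GCA. The GCA libraries were tightly grouped below the CON libraries, and the gene was 1.87-fold lower (log2 fell by 0.90 ± 0.12 SE, edgeR adjusted p = 0.00015).

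GALNT14 (chr2:30886782-31138440), an enzyme known to glycosylate death receptors, was at 6.63, 8.74 and 8.56 FPKM in CON and 5.07, 3.76 and 4.34 FPKM in GCA. The groups did not overlap, and it was 1.75-fold lower (log2 fell by 0.81 ± 0.15 SE, edgeR adjusted p = 0.00157). The falls of GALNT18 and GALNT14 were larger after GC and length correction, at -1.11 and -1.15 on the log2 scale. GALNT7, which acts on peptides that already carry a sugar, was lower by less: log2 fell by 0.44 ± 0.14 (SE, edgeR adjusted p = 0.0294). Its call was lost after GC and length correction (-0.09, adjusted p = 0.62) and without CON replicate 2 (0.124), CON replicate 3 (0.0927), GCA replicate 1 (0.0905) or GCA replicate 3 (0.104).

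The most abundant initiating enzymes were among those that did not pass. GALNT2, a broadly acting transferase and the highest of the step, was at 14.0, 16.5 and 14.7 FPKM in CON and 15.6, 16.1 and 14.9 FPKM in GCA. The libraries interleaved, with a log2 difference of 0.09 ± 0.11 (SE, edgeR adjusted p = 0.536). GALNT10, GALNT1, GALNT11, GALNT12 and GALNT6 had log2 values between -0.16 and 0.27 with adjusted p between 0.235 and 0.883. Of these, GALNT12 passed in the fit with both a replicate block and GC correction (0.40, adjusted p = 0.0304). GALNT3, the enzyme that protects FGF23 from cleavage, was at -0.35 (adjusted p = 0.334), at -0.60 with an adjusted p of 0.0352 without CON replicate 1, and at -0.01 with an adjusted p of 0.989 after GC and length correction. The share of the summed GALNT level held by GALNT14 was 12.2% ± 0.276 (SD, n = 3) in CON and 7.38% ± 1.42 in GCA, and that of GALNT9 was 0.463% ± 0.183 and 2.82% ± 0.151. GALNT4, GALNT8, GALNT13, GALNT15 and GALNT16 were too low to test, with at most 6 counts in any library.

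**Figure D3:**
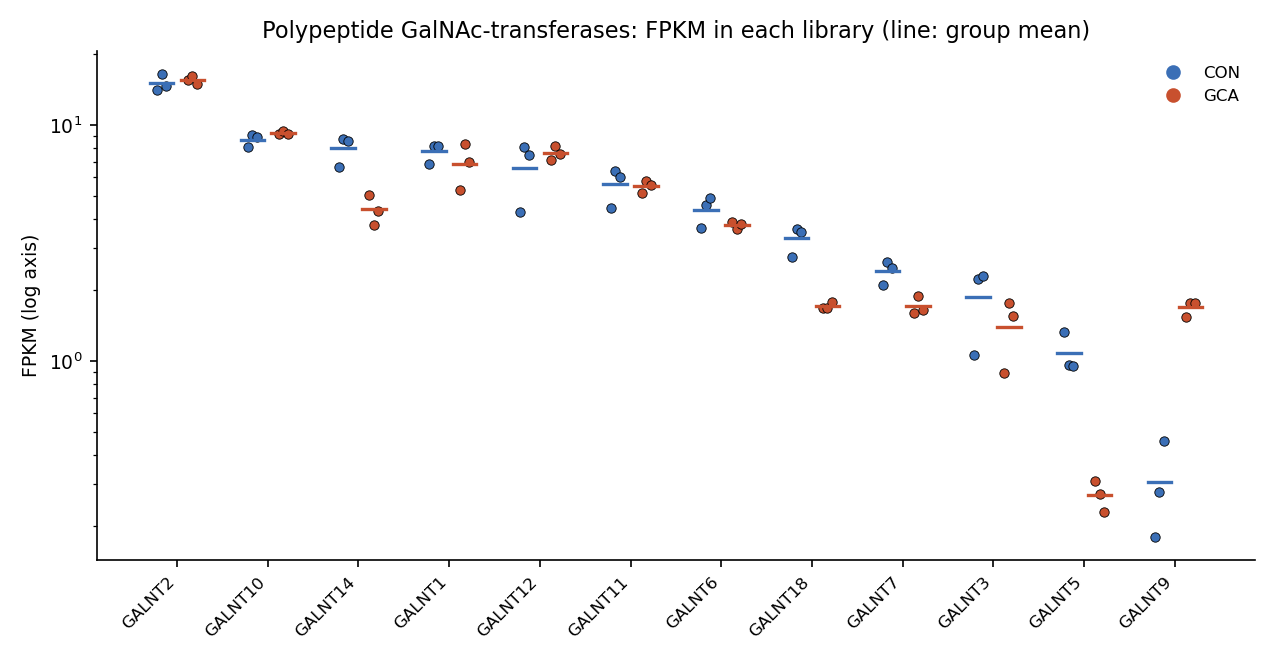
FPKM of the 12 tested GALNT genes in each library on a log axis, ordered by their level in CON, with the group mean as a line. GALNT2 and GALNT10 head the order at similar levels in both groups. GALNT5 is above GALNT9 in CON (1.08 and 0.306 FPKM) and below it in GCA (0.270 and 1.69 FPKM).

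No core or branching enzyme passed the test. C1GALT1, which adds galactose to make the core 1 structure, had a log2 value of -0.21 (edgeR adjusted p = 0.285). Its dedicated chaperone C1GALT1C1 (COSMC) was the higher of the pair at 10.4, 8.36 and 7.27 FPKM in CON and 10.2, 11.9 and 11.3 FPKM in GCA. CON replicate 1 lay among the GCA libraries, and the difference did not pass (log2 0.39 ± 0.18 SE, edgeR adjusted p = 0.0947). It passed without that library (log2 0.61, adjusted p = 0.0022) and after GC and length correction (0.64, 0.0132). B3GNT6, the core 3 synthase of normal colon, had 1 count in each of 2 GCA libraries and 0 elsewhere.

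GCNT1, the main core 2 branching enzyme and the highest of its step, was at 0.626, 0.704 and 0.512 FPKM in CON and 0.502, 0.558 and 0.399 FPKM in GCA. The groups overlapped (log2 -0.29 ± 0.23 SE, edgeR adjusted p = 0.343). GCNT3, the mucin-type branching enzyme of the gut, was at -0.09 (adjusted p = 0.87), while GCNT2, which makes the I antigen, and GCNT4 were too low to test.

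Only rises were called among the chain extension enzymes. Of 7 B3GNT genes other than the core 3 synthase, 6 could be tested, 3 rose, none fell and the median log2 fold change was 0.39. Over all tested genes 18.3% rose. The summed FPKM was 25.3, 39.2 and 37.6 in CON and 45.1, 48.0 and 51.6 in GCA, so the lowest GCA library was above the highest CON library. GC correction left 2 of the 3 calls.

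B3GNT7 (chr2:231395710-231401164), which extends sulfated lactosamine chains such as keratan sulfate, was at 3.34, 5.05 and 3.82 FPKM in CON and 9.22, 10.4 and 11.7 FPKM in GCA. The groups did not overlap and the rise was 2.66-fold (log2 1.41 ± 0.15 SE, edgeR adjusted p = 4.33e-05), the lowest adjusted p of the 48 genes. It was log2 1.03 after GC and length correction, and its share of the step was 12.1% ± 1.66 (SD, n = 3) in CON and 21.6% ± 1.12 in GCA. B3GNT9, a less studied member of the family that overlaps PHAF1, was at 1.84, 2.54 and 2.37 FPKM in CON and 4.20, 3.90 and 4.69 FPKM in GCA. All GCA libraries were higher, by 1.96-fold (log2 0.97 ± 0.17 SE, edgeR adjusted p = 0.00107), and the value was log2 0.56 (adjusted p = 0.0263) after GC and length correction.

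B3GNT3, which extends core 1 chains and is the most abundant enzyme of the step, was at 9.60, 13.3 and 14.8 FPKM in CON and 18.7, 18.8 and 18.6 FPKM in GCA. The 3 GCA values were nearly identical and above all CON values, a rise of 1.55-fold (log2 0.63 ± 0.13 SE, edgeR adjusted p = 0.00299). After GC and length correction it was log2 0.28 with an adjusted p of 0.163. B3GNT2, the main polylactosamine synthase, and B3GNT4 did not pass (log2 0.07 and 0.15, adjusted p = 0.796 and 0.524); in the fit with both a replicate block and GC correction B3GNT2 passed (0.38, adjusted p = 0.0377). B3GNT5, which starts lacto-series glycolipids and not O-glycans, was at -0.47 (adjusted p = 0.0898); it passed with the replicate number as a block (-0.43, adjusted p = 0.0429) and without CON replicate 1 (-0.66, adjusted p = 0.0037). After GC and length correction B3GNT5 was at -0.08 (adjusted p = 0.73), and at -0.07 with the block added. B3GNT8, a partner of B3GNT2, had at most 5 counts.

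Among the ST6GALNAC and ST3GAL sialyltransferases, too, every called change was a rise. ST6GAL1, a sialyltransferase outside these families, fell and is given below with the other O-glycan enzymes. Of the 12 ST6GALNAC and ST3GAL genes, 11 could be tested. Rises were called for 3 of 5 ST6GALNAC and 3 of 6 ST3GAL genes and none fell, beside 18.3% higher over all tested genes. The median log2 fold change was 0.62 for the ST6GALNAC genes and 0.46 for the ST3GAL genes. After GC and length correction 2 ST6GALNAC and 3 ST3GAL genes were called higher and none lower. The summed FPKM of the 12 genes, which has no such correction, was 95.7, 88.5 and 91.5 in CON and 127, 139 and 139 in GCA, a ratio of 1.47. ST6GALNAC4 alone made up 54.1% of this sum in CON and 47.8% in GCA, and its log2 value after GC and length correction was -0.05 (edgeR adjusted p = 0.718). The ST6GALNAC genes alone went from 74.6 ± 4.97 (SD, n = 3) to 110 ± 4.37 and the ST3GAL genes from 17.3 ± 1.33 to 24.8 ± 2.97.

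ST6GALNAC2 (chr17:76565377-76585860), which adds sialic acid to the GalNAc of core 1 chains, was at 2.95, 5.92 and 8.17 FPKM in CON and 10.96, 11.7 and 13.3 FPKM in GCA. The CON libraries were spread widely but stayed below the GCA libraries, and the rise was 2.21-fold (log2 1.14 ± 0.24 SE, edgeR adjusted p = 0.00328). ST6GALNAC6, which can sialylate glycolipids as well, was at 20.9, 17.5 and 17.4 FPKM in CON and 29.1, 35.1 and 35.4 FPKM in GCA. Again no libraries overlapped, with a rise of 1.83-fold (log2 0.87 ± 0.14 SE, edgeR adjusted p = 0.000677). After GC and length correction the values of this pair were log2 0.86 and 0.51, both still called.

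ST6GALNAC4, which makes the disialylated core 1 structure, had the highest level of all 68 genes. It was at 55.7, 45.9 and 47.9 FPKM in CON and 64.6, 65.6 and 62.9 FPKM in GCA, with no overlap and a rise of 1.32-fold (log2 0.41 ± 0.13 SE, edgeR adjusted p = 0.0305). After GC and length correction its value was -0.05 (adjusted p = 0.718), the only change of sign among the called genes. The call was also lost without CON replicate 2 (0.141), CON replicate 3 (0.108), GCA replicate 1 (0.0728), GCA replicate 2 (0.0918) or GCA replicate 3 (0.0882). ST6GALNAC4 (chr9:127907886-127917041) and ST6GALNAC6 (chr9:127885321-127906616) lie 1269 bases apart, and RefSeq lists a readthrough locus over both with which reads could be shared. ST6GALNAC3 and ST6GALNAC5 did not pass (log2 0.62 and 0.29, adjusted p = 0.251 and 0.472). In the fit with both a replicate block and GC correction ST6GALNAC3 passed (1.07, adjusted p = 0.0216). ST6GALNAC1, which makes the sialyl-Tn antigen, had at most 8 counts in any library.

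ST3GAL4 (chr11:126355686-126414638), which caps lactosamine chains on the way to sialyl Lewis antigens, was at 7.82, 8.77 and 8.51 FPKM in CON and 12.9, 14.1 and 15.5 FPKM in GCA. It was the highest ST3GAL gene in every library and rose 1.75-fold (log2 0.81 ± 0.12 SE, edgeR adjusted p = 0.000391), with log2 0.52 after GC and length correction. ST3GAL2, which sialylates core 1 chains and gangliosides, was at 3.05, 3.27 and 2.70 FPKM in CON and 3.51, 4.59 and 4.54 FPKM in GCA. The groups were close but did not overlap (log2 0.53 ± 0.15 SE, edgeR adjusted p = 0.0132). The call was lost after GC and length correction (0.37, adjusted p = 0.0941) and without CON replicate 3 (0.0536), GCA replicate 2 (0.0652) or GCA replicate 3 (0.0736).

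ST3GAL3, a sialyltransferase for lactosamine chains, was at 0.363, 0.701 and 0.639 FPKM in CON and 0.925, 0.776 and 0.867 FPKM in GCA. The groups did not overlap. It rose by log2 0.65 ± 0.23 (SE, edgeR adjusted p = 0.0412), and CON replicate 2 was the only library whose removal kept the call, the adjusted p without each of the others lying between 0.0527 and 0.121. ST3GAL5, the GM3 ganglioside synthase, was at 0.39 (adjusted p = 0.0997) and passed after GC and length correction (0.67, 0.0146) and without GCA replicate 1 (0.55, 0.0345). ST3GAL1, the main core 1 sialyltransferase, and ST3GAL6 did not pass (log2 -0.10 and 0.09, adjusted p = 0.654 and 0.776).

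**Figure D4:**
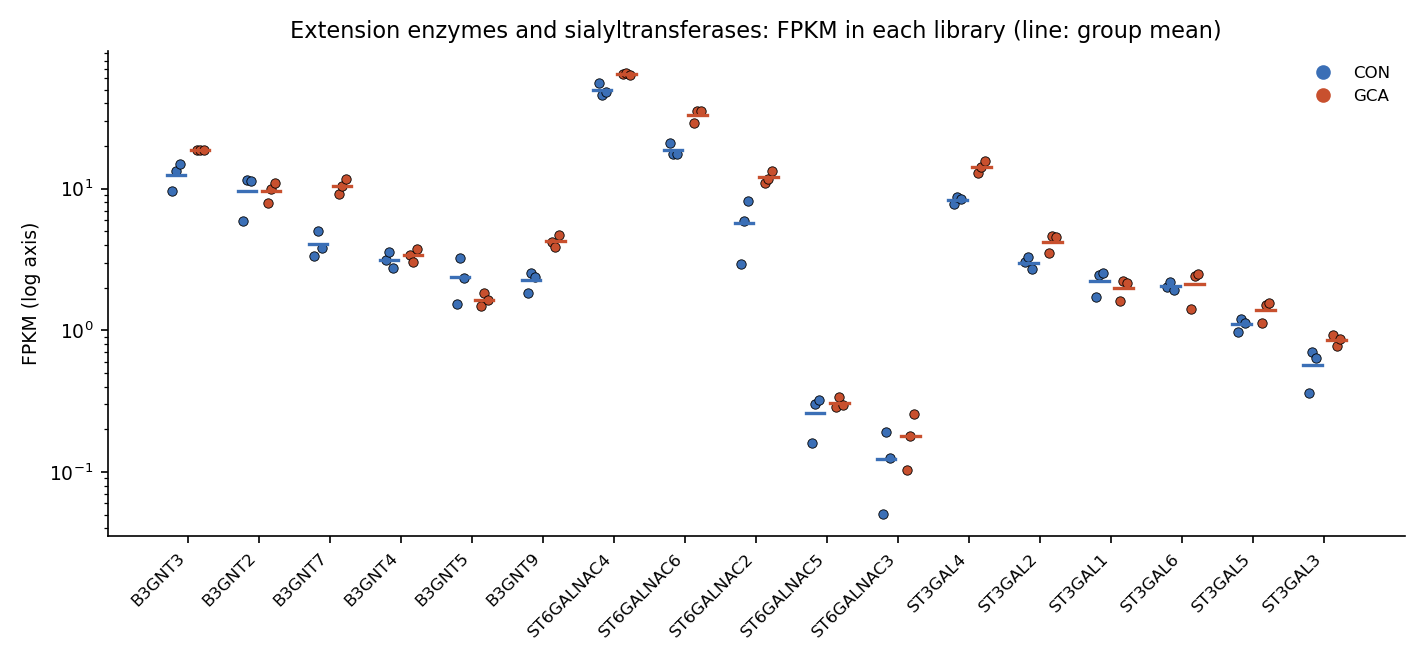
FPKM of the tested B3GNT, ST6GALNAC and ST3GAL genes in each library on a log axis, with the group mean as a line. ST6GALNAC4 is highest at 49.8 FPKM in CON and 64.4 in GCA, and B3GNT7, B3GNT9, ST6GALNAC2, ST6GALNAC6 and ST3GAL4 show the 3 GCA libraries above the 3 CON libraries.

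No fucosyltransferase passed the test as a rise. Of 10 FUT genes, 7 could be tested, none rose and 1 fell, and the median on the log2 scale was -0.26. The summed FPKM was 19.4, 25.5 and 25.7 in CON and 17.96, 19.2 and 20.6 in GCA, and CON replicate 1 lay among the GCA libraries.

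FUT8, which adds the core fucose of N-glycans and so serves another class of sugar chain, was the one that fell. It was at 1.09, 2.11 and 1.92 FPKM in CON and 0.748, 1.32 and 1.06 FPKM in GCA, and the groups overlapped. The fall of 0.65 ± 0.23 (SE) on the log2 scale (edgeR adjusted p = 0.042) did not pass without CON replicate 2 (0.165), CON replicate 3 (0.104), GCA replicate 1 (0.181) or GCA replicate 3 (0.117). It was -0.29 with an adjusted p of 0.28 after GC and length correction.

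FUT11, which RefSeq now lists as POFUT4, had the highest mean level of the step, at 5.84, 8.31 and 6.85 FPKM in CON and 5.52, 4.90 and 5.20 FPKM in GCA. The libraries of the groups did not overlap, yet the difference did not pass (log2 -0.37 ± 0.15 SE, edgeR adjusted p = 0.071). It passed without CON replicate 1 (adjusted p = 0.0192) and after GC and length correction (-0.43, 0.0458). FUT1, which makes the H antigen, was at 5.62, 7.12 and 8.19 FPKM in CON and 3.97, 5.14 and 5.97 FPKM in GCA. Each GCA library was below the CON library of the same number, although the groups overlapped, and the difference of -0.42 (adjusted p = 0.0634) passed with the replicate number as a block (-0.43, adjusted p = 0.0179), after GC and length correction (-0.69, 0.0122) and without CON replicate 1 (0.0137) or GCA replicate 3 (0.0468).

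FUT2, the secretor enzyme that makes the same H antigen in secretions and lies 42059 bases from FUT1 on chromosome 19, was at 0.31 (adjusted p = 0.157). FUT4, FUT3 and FUT10 (POFUT3 in RefSeq) were at -0.18, 0.17 and -0.26 with adjusted p of 0.356, 0.696 and 0.297. FUT5, one of the Lewis-type fucosyltransferases beside FUT3 and FUT6, had 0, 2 and 1 counts in CON against 7, 6 and 10 in GCA. The ratio was 7.12 with an exact 95% counting interval of 2.15 to 37.0, and FUT5 was called when no filter was used (adjusted p = 0.023). These 3 genes have similar sequences, so reads may be split among them. FUT6 had 0, 0 and 2 counts in CON against 2, 5 and 2 in GCA, a ratio of 4.18 with an interval of 0.865 to 39.8, and FUT7 had 1 count in each of 2 GCA libraries.

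**Figure D5:**
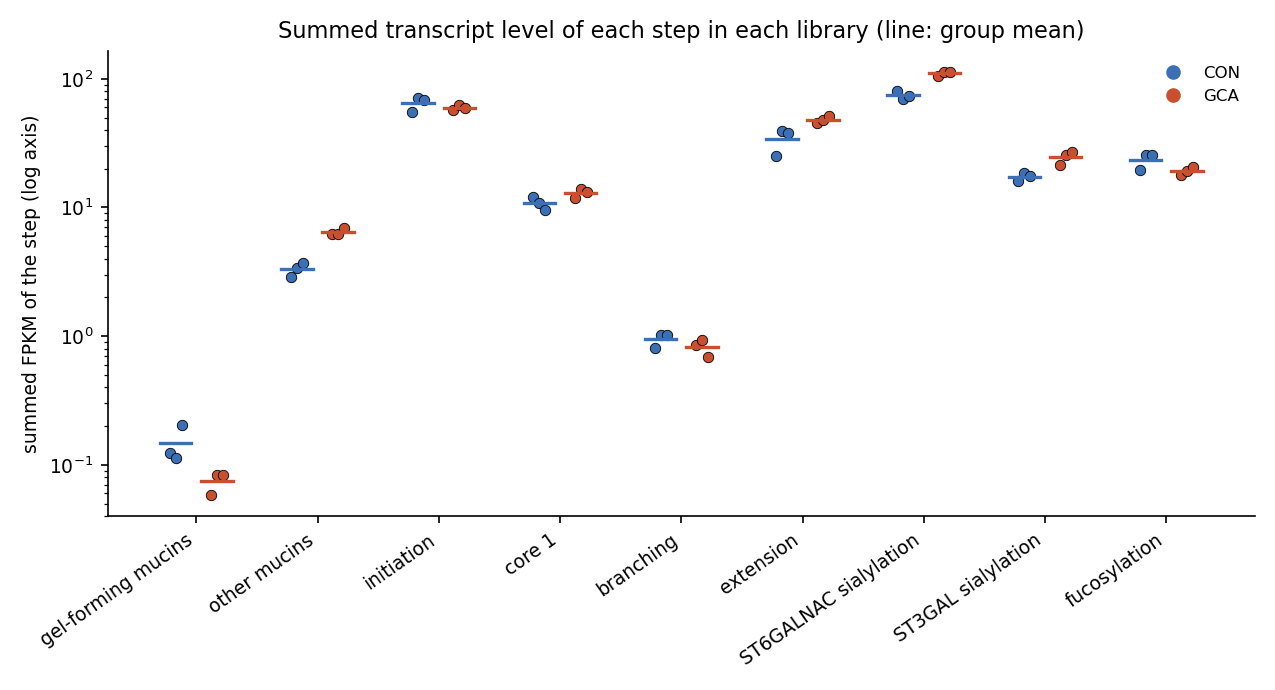
Summed FPKM of each step in each library on a log axis, with the group mean as a line; the core 3 synthase is left out because most libraries are at 0. The other mucins, extension and both sialylation steps have all 3 GCA libraries above all 3 CON libraries, and the gel-forming mucins have them below. These sums have no GC or length correction. MUC2, which passed the filter only through CON, makes up 71.5% of the gel-forming sum in CON. MUC5B is higher in every GCA library than in any CON library. It passed the filter only through GCA and was not called (edgeR adjusted p = 0.116). MUC13 and MUC20, which passed the filter only through GCA, make up 17.5% and 20.3% of the other mucins in GCA.

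The wider pathway was described with 5 lists of genes. Their counts stand beside 18.3% called higher and 18.1% called lower over all tested genes. Of 17 other O-glycan enzymes with a row, 15 could be tested, 4 rose and 1 fell, and the median on the log2 scale was 0.10. After GC and length correction 2 rose and 2 fell. B3GALT5, which builds type 1 chains, had 22, 37 and 42 counts in CON against 93, 80 and 83 in GCA (log2 1.28 ± 0.26 SE, edgeR adjusted p = 0.00242). The sulfotransferases CHST1 and CHST2, which sulfate galactose and N-acetylglucosamine, rose by log2 1.23 and 0.76, and CHST2 did not pass after GC and length correction (adjusted p = 0.0718). ST6GAL1, the sialyltransferase of N-glycan ends, went the other way from the sialyltransferases above and fell by 0.61 on the log2 scale (edgeR adjusted p = 0.00769).

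Of 22 genes for making and importing sugar donors, all tested, 6 rose and 6 fell and the median was -0.02; after GC and length correction 3 rose and 1 fell. GALT and GALK1, which turn galactose into its activated form, rose by log2 1.07 and 0.68, and FCSK, which salvages fucose, rose by log2 0.50. GNPNAT1, of the pathway to UDP-N-acetylglucosamine, fell by 0.59. After GC and length correction GALK1 and FCSK did not pass (adjusted p = 0.189 and 0.394). GNE, which starts sialic acid synthesis, was chosen after its values were seen. It had 203, 239 and 204 counts in CON against 336, 377 and 318 in GCA and rose by log2 0.61 (edgeR adjusted p = 0.00686). Other listed genes of the sialic acid route did not rise. NANP and CMAS had log2 values of -0.66 and -0.36 (edgeR adjusted p = 0.0181 and 0.0456), and neither passed after GC and length correction (0.167 and 0.227). NANS and the transporter SLC35A1 did not pass (log2 0.08 and -0.22, adjusted p = 0.647 and 0.423).

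Genes that accompany mucus secretion were often too low to test. Of 14 with a row, 7 could be tested, 3 rose and 1 fell, and after GC and length correction 1 rose and 1 fell. AGR2, the disulfide isomerase that folds MUC2, had 30, 39 and 32 counts in CON against 10, 8 and 6 in GCA and fell by 2.12 ± 0.35 (SE) on the log2 scale (edgeR adjusted p = 0.000714). ERN2, the stress sensor of goblet cells, had 7, 8 and 2 counts in CON against 24, 25 and 24 in GCA and rose by log2 2.02 (adjusted p = 0.0042). AGR2 was below the filter cutoff of 0.518 CPM in every GCA library, and ERN2 was below it in every CON library. Each passed the filter only through the group where it is high, so these directions are partly set by the filter. CREB3L1 and FOXA3 rose by log2 1.26 and 0.45; after GC and length correction they did not pass (adjusted p = 0.0742 and 0.91). Both were also lost without CON replicate 2 (0.0616 and 0.128) or GCA replicate 3 (0.113 and 0.117), and FOXA3 without GCA replicate 2 (0.107). The goblet cell genes TFF1, TFF2, TFF3, SPDEF and ATOH1 were too low to test.

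Of 10 tested genes that remove sugars from glycans, 5 rose and 3 fell, with a median of 0.30, and 5 rose and 1 fell after GC and length correction. NEU1, the lysosomal sialidase, had 529, 556 and 526 counts in CON against 1163, 1300 and 1328 in GCA and rose by log2 1.17 (edgeR adjusted p = 2.71e-05). NAGLU and GLB1, other lysosomal glycosidases, rose by log2 0.71 and 0.63. NEU3, the sialidase of the cell membrane, fell by 0.71 (adjusted p = 0.0111) and was lost without CON replicate 2 (0.0527), GCA replicate 2 (0.0634) or GCA replicate 3 (0.0619). Of 16 genes for other kinds of protein O-glycosylation, 4 rose and 1 fell, with a median of 0.15, beside 36.4% called over all tested genes. After GC and length correction 2 rose and 1 fell. MFNG, which extends O-fucose on Notch, rose by log2 1.12 (adjusted p = 0.00296). POMGNT1, POFUT2 and EOGT had log2 values of 0.42, 0.42 and -0.61, and after GC and length correction none of these 3 passed (adjusted p = 0.135, 0.41 and 0.239). All 3 also lost the call without CON replicate 2 (0.092, 0.0662 and 0.122) or GCA replicate 3 (0.071, 0.115 and 0.159). The same held for POMGNT1 and EOGT without CON replicate 3 (0.0628 and 0.0931) and for POFUT2 and EOGT without GCA replicate 2 (0.0501 and 0.1).

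Of the 68 genes, 49 had an entry in the RefSeq promoter table, including 16 of the 22 called. Within 250 bases before the start, a GC box was found in 28 of the 49 and in 42.3% of all 27305 promoters in the table. It was present in 9 of the 12 genes that rose, 2 of the 4 that fell and 13 of the 21 that did not pass. The nuclear receptor half-site was found in 9 of the 49 (12.1% of all promoters), the STAT element in 3 (6.78%), the E-box in 3 (6.49%), the TATA box in 4 (11.1%), the grainyhead site in 1 (1.48%) and the interferon element core in none (7.06%). No match of one motif overlapped a match of another in these 49 windows.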

How the data were processed

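RNA-seq of 6 libraries was used. The authors deposited raw read counts per gene and FPKM values for 16229 gene symbols; per the submitters' processing notes, the tools were HTSeq 0.11.2, HISAT2 2.2.1.0 and fastp 0.20.1 with hg38; annotation release and strand setting are not given. In the deposited table FPKM equalled count over library total and gene length for all 16229 genes (relative tolerance 1e-09). Library totals were 18057453 to 20531612 counts.

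Counts were tested with edgeR 4.0.16 (quasi-likelihood, TMM; filterByExpr, minimum count 10, minimum total 15) in R 4.3.3 over all 12604 genes passing the filter, with Benjamini-Hochberg adjustment at 0.05. The fit was tested on simulated counts with changes planted in 200 genes, none of them at the low counts of most mucins. The simulated libraries had no built-in difference in their relation to GC content. The simulation therefore does not cover the calls of low genes or how well the GC correction works. GC content was that of the longest GENCODE 29 transcript of each gene (99.2% of genes, all 68 members) and was fitted with mgcv 1.9.3. Other alternatives used DESeq2 1.42.0, limma 3.58.1, other scalings and filters, and left out each library. Deviations of same-numbered libraries correlated at 0.206, 0.137 and 0.104, so the numbers were also used as a block. For differently numbered libraries the values ran from -0.172 to 0.0954, and the highest, CON 3 with GCA 2, was close to the lowest same-numbered value. The pairing comes from the data, not from the labels.

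Named genes were all members, with full statistics for called genes with a log2 change of 0.5 or more and for the most abundant of each step; up to 4 genes per pathway list were named by lowest p. The members and lists were chosen with earlier results of these data known.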

Additional observations from a re-analysis of the deposited data

How the results depend on the processing

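Over 19 alternatives, the number of the 48 genes called higher ranged from 11 to 18 against 16, and the number called lower from 3 to 10 against 6. The lower count was 3 with limma on log2(FPKM + 1), where the pseudocount compresses low genes such as MUC2 (-0.13, adjusted p = 0.0763). Leaving out 1 library at a time gave 11 to 15 higher and 4 to 10 lower, with 10 lower without CON replicate 1; without that library 3225 of all genes rose and 3482 fell, against 2307 and 2277. With a replicate block, 16 were higher and 8 lower, beside 2518 and 2645 of all 12604 genes. B3GNT5 and FUT1 were added and no other call of a member changed under the block alone. With GC and length correction 13 were higher and 6 lower (1688 and 1942 of all 12604 genes). With both the block and the correction there were 17 and 6 (1987 and 2330 of all genes). ST6GALNAC4 changed sign under the GC and length correction (-0.049 without the block and -0.051 with it). Of the single-gene values under these alternatives, 817 kept their side of the threshold, 67 lost the call and 26 gained it. Of the 817, 32 had the other sign, all for genes that were not called, and 10 of the 26 genes not called in the test as reported were called under at least 1 alternative. The cause of these shifts was not tested. Depth limits the low genes: 3 counts are 0.146 to 0.166 CPM, and every mucin but MUC3A had at most 74 counts in any library.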
